A study of Mus musculus with 8 samples.

Results

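The transcripts described here are those of 10 genes that mark or serve the Sertoli cell, the supporting cell of the fetal testis: Sox9, Sox8, Gata4, Amh, Dhh, Fgf9, Inhbb, Cst9, Ptgds and Tesc. They were taken as every non-control probe that carried 1 of these names on the array, or whose accession or description led to it. This gave 16 probes for the 10 genes, of 41174 probes and 19694 named genes in all. Sox9 was read by 3 probes, and Sox8, Fgf9, Inhbb and Gata4 by 2 each. Of the Fgf9 probes, 1 was listed under a transcript identifier and was matched by its description.

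RNA immunoprecipitation (RIP) with an antibody against DAZL was followed by microarray analysis in gonads of mouse embryos at E14.5, of strain MCH. In RIP, an antibody brings down a protein together with the RNA bound to it (the immunoprecipitate, IP), which is compared with RNA kept from the same lysate (the input). The 4 groups were XX input (female), XX IP, XY input (male) and XY IP, with 2 arrays each. No allele was altered and no agent was given in any group as far as the labels state. Each lysate pooled a lot of 50 gonads, the input was 5% of it, and Cy3-labelled RNA was made from 50 ng of input or 1 ng of precipitated RNA. No source says whether the 2 arrays of a group came from separate lots, so every p-value measures only the spread between these arrays, which may be technical. No IP with a control antibody was analysed here, so an IP value is relative to the input alone. All XX arrays lay on 1 slide and all XY arrays on another, so for the comparison of the inputs the slide and the sex cannot be told apart.

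In the XY gonad, the transcription factor SRY starts Sertoli cell differentiation and SOX9 carries it on. SOX8 acts alongside SOX9, and GATA4 is a transcription factor of the somatic cells of both sexes. Sertoli cells then surround the germ cells in cords and signal to other cells through secreted proteins. AMH makes the Müllerian ducts regress, DHH acts on Leydig and peritubular cells through the receptor PTCH1, FGF9 sustains SOX9, and INHBB is a subunit of activin B and inhibin B. PTGDS makes prostaglandin D2, which feeds back on SOX9. DAZL itself is an RNA-binding protein of germ cells. The arrays measured RNA of whole gonads and do not show which cells a transcript came from.

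Levels are log2 signals relative to the 75th percentile of the same array. On that scale 1 unit is a doubling, and levels of different probes are not set against each other because each probe binds with its own strength. The inputs had 16743 to 20423 probes well above background and the IPs 6083 to 9486. The lowest level well above background was between -3.59 and -2.34 on the inputs and between 0.03 and 1.03 on the IPs. A level under that limit on an IP is therefore background, and since this background lies higher than that of the inputs, an undetected transcript gets a positive IP minus input difference. Testing with limma took in 18263 probes, those detected well above background by both arrays of any group, and so 10 of the 16 probes and 9 of the 10 genes. The untested probes were both of Gata4, 1 of Sox9, 1 of Sox8, 1 of Fgf9 and 1 of Inhbb. As reference transcripts of germ cells, Dazl had an IP minus input difference of 2.69 in XX (SE 0.39, adjusted p = 0.00031). Its XY difference was 2.06 (SE 0.39, adjusted p = 0.002), and those of Ddx4 were 1.91 (SE 0.38, adjusted p = 0.0019) and 1.78 (SE 0.38, adjusted p = 0.0039). Over 8 ways of background correction and scaling, Dazl ran from 0.45 to 2.69 in XX and from -0.14 to 2.06 in XY, and Ddx4 from -0.28 to 1.91 and from -0.43 to 1.78, so the sign of an IP difference depends on the scale for these transcripts, other than Dazl in XX.

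RefSeq promoter windows (GRCm38.p6) were matched for 7 of the 10 genes. The 250 bases before the start of transcription are shown for Cst9, Dhh, Tesc and Ptgds, whose inputs differed most between the sexes, and for Fgf9, whose inputs did not pass the test. Capitals mark the letters AGATAA or TGATAA, which GATA factors such as GATA4 can bind, on either strand.
Cst9, chr2:148834897-148835146, + strand: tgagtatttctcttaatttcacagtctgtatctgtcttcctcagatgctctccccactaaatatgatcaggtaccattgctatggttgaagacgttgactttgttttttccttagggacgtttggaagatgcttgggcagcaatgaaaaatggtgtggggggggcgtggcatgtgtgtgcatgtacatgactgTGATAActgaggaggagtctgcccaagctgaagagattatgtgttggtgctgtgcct
Dhh, chr15:98898541-98898790, - strand: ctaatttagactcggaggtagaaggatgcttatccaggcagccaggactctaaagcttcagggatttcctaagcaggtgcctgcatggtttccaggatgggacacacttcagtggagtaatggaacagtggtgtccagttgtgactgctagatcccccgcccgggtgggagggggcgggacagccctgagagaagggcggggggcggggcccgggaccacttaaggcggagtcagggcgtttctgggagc
Tesc, chr5:118027493-118027742, + strand: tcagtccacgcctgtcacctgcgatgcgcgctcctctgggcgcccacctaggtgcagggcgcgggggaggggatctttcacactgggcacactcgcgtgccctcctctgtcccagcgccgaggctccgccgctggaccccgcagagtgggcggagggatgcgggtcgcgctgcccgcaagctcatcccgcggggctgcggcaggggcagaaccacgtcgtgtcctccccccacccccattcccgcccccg
Ptgds, chr2:25469750-25469999, - strand: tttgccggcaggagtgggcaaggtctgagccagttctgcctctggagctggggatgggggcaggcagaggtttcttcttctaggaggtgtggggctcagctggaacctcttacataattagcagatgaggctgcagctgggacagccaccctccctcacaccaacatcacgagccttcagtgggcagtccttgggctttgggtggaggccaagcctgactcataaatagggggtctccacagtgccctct
Fgf9, chr14:58072436-58072685, + strand: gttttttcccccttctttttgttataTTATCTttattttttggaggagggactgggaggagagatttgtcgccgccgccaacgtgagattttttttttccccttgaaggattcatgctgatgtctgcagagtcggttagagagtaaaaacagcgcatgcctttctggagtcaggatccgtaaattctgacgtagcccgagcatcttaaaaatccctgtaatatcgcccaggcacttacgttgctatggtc
Cst9 held TGATAA once, 57 to 52 bases before the start, and Fgf9 held AGATAA once on the opposite strand, 224 to 219 bases before the start. These were 2 of the 7 windows, and 16.6% of all 32851 windows held one or the other. The SOX letters AACAAT, in 9.42% of all windows, and the NR5A1 letters AAGGTCA, in 4.08%, were in none of the 7 windows. G and C made up 45.6% of the Cst9 window and 44.8% of the Fgf9 window, against 58.4% to 73.2% in the windows of the other 5 genes and a median of 52.4% over all windows. A match of letters is a description and no site of binding.

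The Sertoli genes were far higher in the XY input than in the XX input. Of the 10 tested probes, 9 passed the test (adjusted p under 0.05), all higher in XY, and these stood for 8 of 9 genes. Over all probes tested, 6.1% were higher in the XY input and 5.88% in the XX input. Sox8, Amh, Dhh and Fgf9 entered the test only because both XY inputs were above background, so a count that includes them leans towards XY. The other 6 probes, of Sox9, Cst9, Ptgds, Tesc and Inhbb, were above background on both inputs of each sex, and all 6 passed. With Sox8, Amh and Dhh, undetected in XX, at their bounds, the median difference of XX minus XY was -2.97 over the 10 probes. As fitted, with background readings included, it was -3.5, beside -0.00 over all probes. By main probe, as fitted, the median of the 9 genes was -1.47 with normexp background correction. In RNA of a whole gonad, fewer cells of a type and less RNA per cell cannot be told apart. Of the 10 genes, 9 were above background on both XY inputs, and 5 on both XX inputs.

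Sox9 was read by 2 tested probes, which gave like differences. The probe A_52_P214630 (mm8 chr11:112603585-112603644), printed in 10 spots, read -0.70 and -0.64 in the XX inputs and 1.88 and 1.78 in the XY inputs. The probe A_52_P577484 (chr11:112601784-112601843) read -0.78 and -0.97 in XX and 1.60 and 1.57 in XY. The groups did not overlap, and XY was 5.67-fold higher by the first (XX minus XY -2.50, SE 0.40, adjusted p = 0.0013) and 5.52-fold by the second (-2.46, SE 0.41, adjusted p = 0.0017). With normexp background correction both probes lost the call (-1.19, adjusted p = 0.076, and -1.07, adjusted p = 0.097). Sox9 was also above background in both XX inputs. The other Sox9 probe, A_51_P451606, whose recorded span of 853 bases (chr11:112599086-112599938) is longer than a 60-base oligo, was above background on 1 XX input only and gave no reading of the gene in XY.

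Sox8 was read by A_52_P269672 (chr17:25293749-25293808), with -1.57 and -1.80 in the XY inputs and -5.54 and -4.40 in the XX inputs. Neither XX input was above background, so XY was at least 2.44-fold higher (adjusted p = 0.00094). With a common floor for dim signals the call was lost (XX minus XY -1.09, adjusted p = 0.16), and also with normexp. Over 8 ways of background correction and scaling the difference ran from -3.3 to -0.85, so the bound holds on the scale used here only. The second Sox8 probe was below background on all 8 arrays. Gata4 was not above background on any array by either of its probes, which read -3.56 to -3.16 and -4.16 to -3.92 in the XX inputs and -3.40 to -3.37 and -3.40 to -3.28 in the XY inputs. The array therefore gives no level for this factor in either sex.

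Among the secreted proteins, Dhh and Amh were detected in the XY inputs and in neither XX input. Dhh (A_52_P232637, chr15:98721068-98721127) read 4.42 and 4.68 in the XY inputs, and -3.70 and -2.81, below background, in the XX inputs. XY was at least 183-fold higher on the scale used here (adjusted p = 7.1e-06). Amh (A_51_P230075, chr10:80210592-80210651) read 0.35 and 0.63 in XY and -3.56 and -2.88, below background, in XX, so that XY was at least 10.9-fold higher on this scale (adjusted p = 0.0002). Over 8 ways of background correction and scaling, XX minus XY as fitted ran from -7.82 to -4.23 for Dhh and from -3.72 to -1.47 for Amh. Both are classic products of the fetal Sertoli cell.

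Inhbb, the activin and inhibin subunit, was well detected in both sexes. Its probe A_51_P325904 (chr1:121243052-121243111) read 1.81 and 2.18 in the XX inputs and 4.05 and 4.14 in the XY inputs, a 4.29-fold higher level in XY (XX minus XY -2.10, SE 0.46, adjusted p = 0.011). The second Inhbb probe was above background on 1 input of each sex and was not tested. Leaving out 1 array leaves its group with 1, which the fit takes to vary as the other groups do. In such fits this call was lost, at an adjusted p of 0.1 without XX input 1, 0.064 without XY input 1 and 0.079 without XY input 2.

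Fgf9 was the one tested member whose inputs did not pass the test. The probe A_51_P497152 (chr14:57063697-57063756) read -1.95 and -2.14 in the XX inputs and -0.89 and -1.62 in the XY inputs. The groups did not overlap, and the difference was -0.78 (SE 0.44, adjusted p = 0.32). It was above background on 1 XX input and on both XY inputs. The second Fgf9 probe was above background on 1 XY input only.

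Cst9, Tesc and Ptgds had the widest gaps measured on both sides. Cst9, a secreted protein of the cystatin family of protease inhibitors, read 7.37 and 6.97 in the XY inputs and -0.79 and -1.60 in the XX inputs (A_51_P506297, chr2:148530049-148530108). In scanner units this was 19646 and 10200 against 100.0 and 25.5. XY was 331-fold higher (XX minus XY -8.37, SE 0.48, adjusted p = 2.3e-06). Tesc, a calcium-binding protein, read 4.03 and 4.15 in XY and -2.67 and -1.91 in XX (A_52_P69955, chr5:118322636-118322695), which was 83.2-fold (-6.38, SE 0.52, adjusted p = 1.6e-05). Ptgds, the prostaglandin D2 synthase, read 4.45 and 4.54 in XY and -1.16 and -1.14 in XX (A_51_P157406, recorded span chr2:25289331-25289862), which was 50.0-fold (-5.64, SE 0.41, adjusted p = 7.1e-06). All 3 were above background on both XX inputs. Over 8 ways of background correction and scaling, XX minus XY ran from -8.38 to -6.12 for Cst9, from -6.39 to -3.59 for Tesc and from -5.66 to -3.48 for Ptgds.

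**Figure D1:**
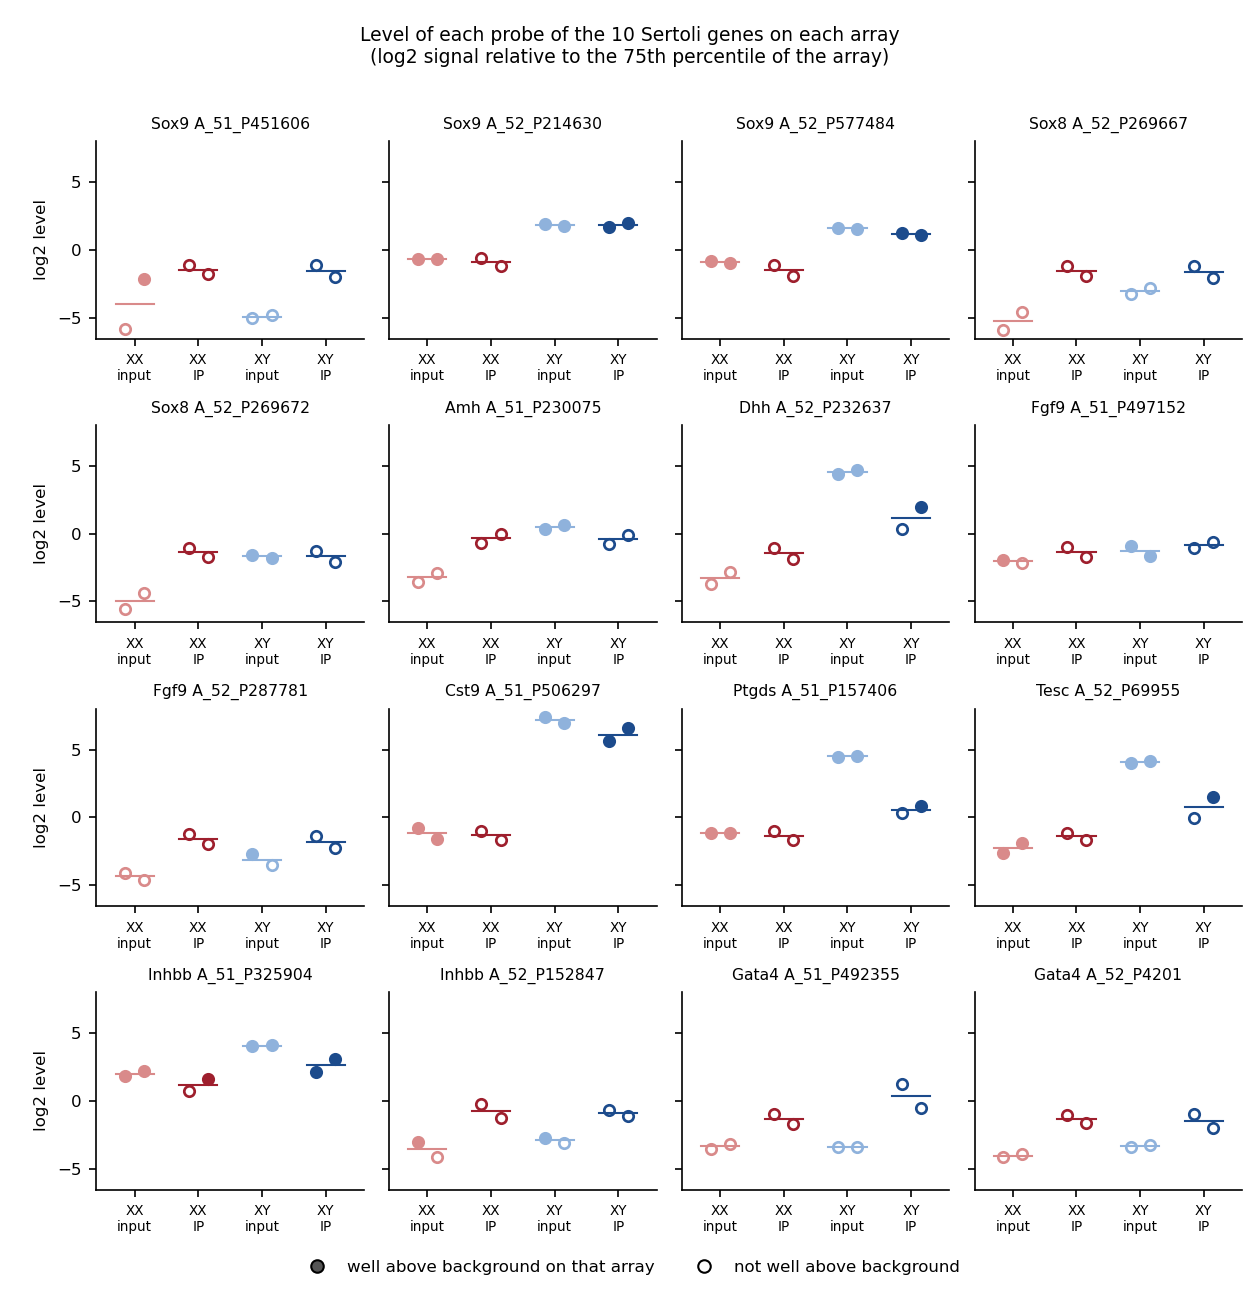
Level of each of the 16 probes on each of the 8 arrays, 1 panel per probe (y axis, log2 level, as scaled to the 75th percentile; x axis, group). Each point is 1 array, filled where the probe was well above background on it and open where it was not, and the line is the mean of the 2 arrays. Cst9 stands between 6.97 and 7.37 in the XY inputs and between -1.60 and -0.79 in the XX inputs, and most XX IP points are open.

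The pull-down was then compared with the input in XY gonads, where the Sertoli genes are expressed. The calls of enriched or depleted needed both a 4-fold change and an adjusted p under 0.05. Of the 10 tested probes, 3 were depleted (Ptgds, Dhh and Tesc) and 0 were enriched (limma, also 0 at an unadjusted p under 0.05), against 7.67% depleted and 10.2% enriched over all probes tested. As fitted, with background readings included, the median difference was -1.0 over the 10 probes and -0.03 over all probes. With the 3 undetected in the IP at their bounds, the median of the 10 was -0.74, an upper limit. Scaled to the 50th percentile, the median of all probes was -1.90 and 7 of the 10 probes were depleted, against 45.9% of all probes, and with normexp background correction 5 were, against 4.4%. Of the 10 tested probes, 4 (2 of Sox9, 1 of Cst9 and 1 of Inhbb) were above background on both XY IPs, which over all tested probes was the case for 30.2%. None of the 6 untested probes was.

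Ptgds read 0.30 and 0.81 in the XY IPs against 4.45 and 4.54 in the XY inputs, and was depleted (IP minus input -3.94, SE 0.41, adjusted p = 7.1e-05). Dhh read 0.33 and 1.97 in the XY IPs against 4.42 and 4.68 (-3.40, SE 0.56, adjusted p = 0.00089). Tesc read -0.03 and 1.48 against 4.03 and 4.15 (-3.36, SE 0.52, adjusted p = 0.0006). All 3 were above background on XY IP 2 but not on XY IP 1, so the first reading of each IP pair is background. Without XY IP 1, with the lone XY IP taken to vary as the other groups did, the differences were smaller and still passed, at -3.69 for Ptgds (adjusted p = 0.00059), -2.58 for Dhh (adjusted p = 0.0054) and -2.61 for Tesc (adjusted p = 0.003).

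Sox9 was detected in both XY IPs. It read 1.68 and 2.00 in the XY IPs by A_52_P214630 and 1.27 and 1.13 by A_52_P577484. The differences from the input were 0.01 (SE 0.40, adjusted p = 0.98) and -0.39 (SE 0.41, adjusted p = 0.46). In the first probe the 2 groups overlapped, and in the second the IPs lay below the inputs. Inhbb read 2.15 and 3.12 in the XY IPs, -1.46 from the input (SE 0.46, adjusted p = 0.026), which passed the p limit but not the 4-fold limit. Without XY IP 1 the Inhbb difference was smaller, at -0.97. Over 8 ways of background correction and scaling it ran from -3.32 to -1.46. Inhbb passed as depleted with either normexp and scaled to the 50th percentile. Cst9 read 5.60 and 6.58, -1.08 from the input (SE 0.48, adjusted p = 0.092), with both IPs below both inputs. Cst9 passed as depleted with normexp (-2.91, adjusted p = 0.027) and with outlying backgrounds replaced (-3.1, adjusted p = 0.0024). It also passed scaled to the 50th percentile (-2.95, adjusted p = 0.0079).

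Amh, Sox8 and Fgf9 were not above background on either XY IP. Amh read -0.74 and -0.12 there (adjusted p = 0.12 against the input), Sox8 -1.27 and -2.12 (adjusted p = 0.99), and Fgf9 -1.04 and -0.61 (adjusted p = 0.45), and no difference is given for them. Their input levels lay near or under the IP detection limit, so a depletion of these 3 could not have been measured. Whether the values of Ptgds, Dhh and Tesc differ from that of Sox9 was not tested, and neither was what a control antibody would have brought down.

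Of the Leydig cell markers, 2 of 4 tested genes were depleted in the XY IP, against 7.67% of all probes. These were Cyp17a1 (-4.03, SE 0.44, adjusted p = 9e-05), above background on 1 of the XY IPs, and Hsd3b1 (-2.18, SE 0.40, adjusted p = 0.0016), above it on both. Scaled to the 50th percentile 4 of 4 were depleted, against 45.9% of all probes. The summed level of the Leydig list was 77.2 to 82.2 in the XY inputs and 10.4 to 17.0 in the XY IPs, in units of the 75th percentile. Of 7 germ cell markers, 3 were enriched (Dazl, Dppa3 and Sycp3), against 10.2% of all probes. When scaled to the 50th percentile or with normexp 0 were, against 1.2% and 0.115% of all probes. Of the others, Ddx4, Dnd1 and Pou5f1 gave 1.78, 0.54 and 0.06. Mael lay below its input (-0.92, SE 0.41, adjusted p = 0.094), and ran from -2.79 to -0.92 over 8 scaling and background settings. The IP minus input difference of Dazl ran from -0.14 to 2.06 over 8 scaling and background settings, so its direction turned, while that of Dppa3 and Sycp3 did not. The summed level of the 7 germ cell markers was 177 to 209 in the XY inputs and 601 to 924 in the XY IPs, or 122 to 134 and 250 to 270 without Dppa3. The part of cell type in the depletion was not tested.

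**Figure D2:**
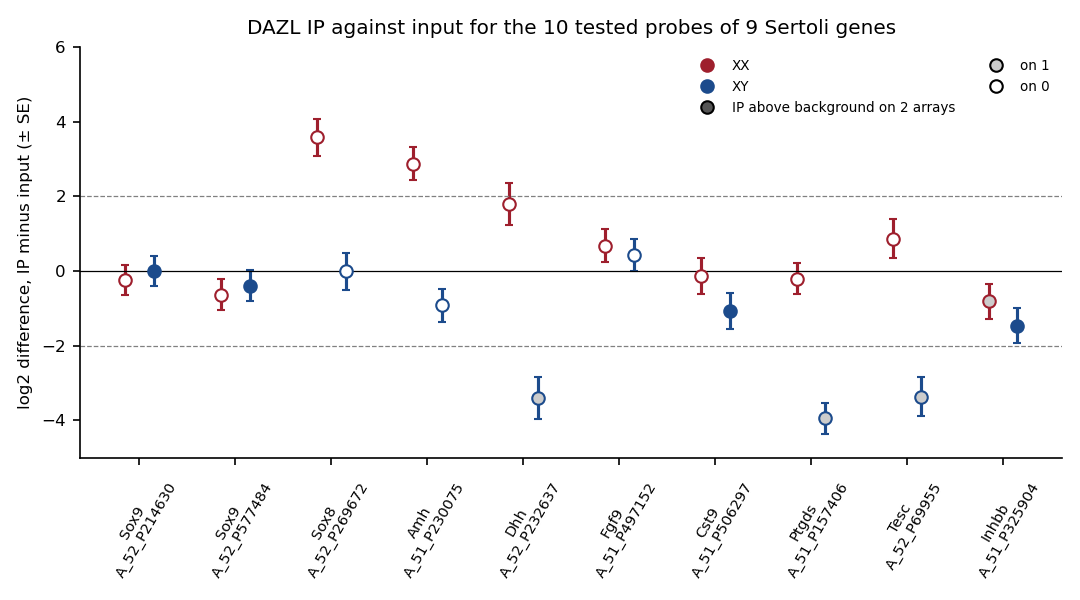
Difference between DAZL IP and input for the 10 tested probes of 9 genes (y axis, log2 difference ± SE from the fit, 2 arrays against 2; x axis, probe), in XX (red) and XY (blue). Points are filled where the IP was well above background on both arrays, grey where on 1 and open where on 0, and dashed lines mark 4-fold. In XY, Ptgds, Dhh and Tesc lie between -3.94 and -3.36 and both Sox9 probes between -0.39 and 0.01, and the XX points of Sox8 and Amh above 2 are open.

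In XX gonads none of the 10 genes was detected in the pull-down on both arrays. None of the 16 probes was above background on both XX IPs, against 30.6% of all tested probes, and Inhbb alone was so on 1, with 0.75 and 1.63. By the fit, Sox8 (3.58, SE 0.49, adjusted p = 0.00024) and Amh (2.87, SE 0.44, adjusted p = 0.00041) passed as enriched, and 0 probes as depleted (limma, also 0 at an unadjusted p under 0.05), against 14.1% enriched and 9.89% depleted over all probes. Both were below background on all 4 XX arrays, with Amh at -0.69 and -0.01 and Sox8 at -1.06 and -1.72 in the IPs, so these differences compare background with background and no fold is given. The remaining differences ran from -0.81 (Inhbb, SE 0.46, adjusted p = 0.17) to 1.79 (Dhh, below background on all 4 arrays). For Sox9, Cst9, Ptgds and Tesc, which were above background in both XX inputs, the IP readings of -0.61 to -1.89 lay under the IP detection limit.

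The difference between the sexes in IP against input passed the test for 5 of 10 probes, all with the higher value in XX, against 2.18% of all probes higher in XX and 1.12% higher in XY. These were Dhh (5.19, SE 0.79, adjusted p = 0.007), Tesc (4.23, SE 0.73, adjusted p = 0.012), Amh (3.79, SE 0.63, adjusted p = 0.01), Ptgds (3.74, SE 0.58, adjusted p = 0.0072) and Sox8 (3.59, SE 0.70, adjusted p = 0.021). None of the 5 was above background on any XX IP. The XX IP reading in each contrast is therefore background, as was the XY IP reading of Amh and Sox8, and these values cannot be read as a difference in recovery with DAZL between ovary and testis. For Inhbb, the 1 member detected on an XX IP, the difference was 0.65 (SE 0.66, adjusted p = 0.70), and for the Sox9 probes it was -0.24 in each (adjusted p = 0.89). Without XX input 1, or without XX IP 1, 3 of the 10 probes passed.

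Wider lists were set beside the 10 genes by the main probe of each gene, the tested one with the highest mean. Of 22 further Sertoli transcripts, 20 were tested, 10 were higher in the XY input and 2 in the XX input (Krt18 and Cst12), against 6.1% and 5.88% of all probes. This count leans towards XY too, since 7 of the 20 entered the test only through XY groups, 5 of them among the 10. Of the other 13, 5 were higher in the XY input. With normexp 6 were higher in the XY input, and scaled to the 50th percentile 0 were higher in the XX input. The largest gaps were those of Sostdc1, a secreted BMP antagonist (at least 101-fold), Hsd17b3, which makes testosterone (at least 29.3-fold), Hsd17b1 (at least 22.7-fold), Defb19 (XX minus XY -5.45, SE 0.43), Col9a3 (at least 14.0-fold) and Cyp26b1, which degrades retinoic acid (-5.17, SE 0.42). Of the 20, 7 were depleted in the XY IP, against 7.67% of all probes. Col9a3, Hsd17b3, Vnn1 and Cst12 among these 7 were at background on both XY IPs, and the falls of Col9a3 and Hsd17b3 are bounded only at 1.3-fold and 2.71-fold, under the 4-fold limit. The count was 16 scaled to the 50th percentile (45.9% of all probes), 2 with normexp (4.4%) and 8 with normexp after outlying backgrounds were replaced (10.6%). Among them Clu, a secreted chaperone above background on 1 XY IP, fell by 4.92 (SE 0.55, adjusted p = 9.8e-05), and Defb19 by 3.64 (SE 0.43, adjusted p = 0.00014). The median XY IP minus input of this list, with the 11 genes undetected in the IP at their bounds, was -1.0, beside -1.08 for the 9 Sertoli genes by main probe. In the XX IP, 4 of the 20 were above background on both arrays, and by the fit 6 were enriched and 5 depleted, against 14.1% and 9.89% of all probes. Among the 6, Col9a3, Hsd17b1, Hsd17b3, Serpine2 and Trf were below background on both XX IPs, so no enrichment can be read for them. Among the 5, Clu and Mro were below it too, and the fall of Mro is bounded only at 1.51-fold. Scaled to the 50th percentile or with either normexp, 0 of the 20 were enriched (1.03% and 0.378% of all probes). Cyp26b1, above background on all 8 arrays, was enriched in the XX IP (3.17, SE 0.42, adjusted p = 0.0002) and gave -1.02 in the XY IP (SE 0.42, adjusted p = 0.073). The difference between the sexes passed for 6 of the 20, all higher in XX (2.18% of all probes). Of these, Defb19, Col9a3, Hsd17b1, Hsd17b3 and Sostdc1 were below background on both XX IPs, so their values do not measure a difference in recovery. For Cyp26b1 the difference between the sexes was 4.19 (SE 0.60, adjusted p = 0.0046). Both Cyp26b1 calls were lost scaled to the 50th percentile and with normexp.

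Among testis-determining and early gonad factors, Sox10 was at least 4.37-fold higher in the XY input (adjusted p = 0.001), a call lost with normexp. Emx2, which was not above background on either XY input, was at least 1.95-fold higher in the XX input (adjusted p = 0.029). Its call was lost with no filter on dim probes and under every other scaling and background correction but the authors' table, and with normexp its direction turned (-0.45). Sry, which starts the pathway, and Dmrt1 were not above background on both arrays of any group. Wt1 and Nr5a1, which act in the gonads of both sexes, gave XX minus XY differences of 1.27 (adjusted p = 0.11) and -0.34 (adjusted p = 0.76).

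The receptors and partners of the secreted members went both ways between the inputs. For AMH, the receptor Amhr2 was higher in the XX input (1.72, SE 0.47, adjusted p = 0.032), and the other 4 of 5 genes did not pass in the inputs. The Amhr2 call was lost when scaled to the 50th percentile and with no filter on dim probes (adjusted p = 0.16). Amhr2 fell in the XX IP (-2.86, SE 0.47, adjusted p = 0.00055), where it was above background on both arrays. It also fell in the XY IP (-2.97, SE 0.47, adjusted p = 0.00066), where it was so on 1 array, and that call was lost with normexp. For DHH, 3 of 6 tested genes were higher in the XY input, against 6.1% of all probes. All 3 entered the test only through XY groups, so this count leans towards XY, and of the other 3 genes 0 were higher there. The 3 that passed were the inhibitor Hhip (at least 6.5-fold), the receptor Ptch1 (at least 3.81-fold) and the transcription factor Gli2 (-2.36, SE 0.57, adjusted p = 0.017). With normexp Hhip alone of the 3 passed, and the call of Gli2 was also lost with no filter, with a common floor, with quantile normalization and with scaling to probes above background on all arrays. Ptch1 was enriched in the XY IP, where it was above background on both arrays (2.69, SE 0.44, adjusted p = 0.00083). That call was lost scaled to the 50th percentile and with normexp, where the difference was 0.40. For FGF9, Fgfr2 was higher in XX (1.69, SE 0.45, adjusted p = 0.028) and Fgfr4 in XY (-1.47, SE 0.40, adjusted p = 0.033) among 6 tested genes, and both calls were lost with no filter, scaled to the 50th percentile, scaled to probes above background on all arrays and with normexp. Of the activin and inhibin genes, the subunits Inha (-3.07, SE 0.58, adjusted p = 0.004) and Inhba (-4.58, SE 0.43, adjusted p = 4.2e-05) were higher in XY as Inhbb was (the call of Inha was lost with normexp, with quantile normalization and with scaling to probes above background on all arrays), and the antagonist Fst, of pregranulosa cells, was at least 59.1-fold higher in XX. Inha fell at least 10.9-fold in the XY IP (adjusted p = 0.00021) and Inhba, above background on 1 XY IP, by 2.68 (SE 0.43, adjusted p = 0.0008). With normexp Inha alone of the pair was depleted. For prostaglandin D2, 2 of 5 genes were tested, and their XX minus XY differences were -0.39 for Ptgdr2 (adjusted p = 0.64) and 0.06 for Ptgs1 (adjusted p = 0.97), both of which turned direction under another scaling.

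Markers of other cells differed between the inputs as well. All 4 tested Leydig markers were higher in XY, against 6.1% of all probes, by a median of XX minus XY of -5.63, and 2 of them entered the test only through XY groups. The call of Cyp11a1 was lost scaled to the 50th percentile, scaled to probes above background on all arrays, with quantile normalization and with normexp. Of 3 tested pregranulosa markers, Fst and Rspo1 were higher in XX, against 5.88% of all probes, and the call of Rspo1 was lost scaled to the 50th percentile. The summed level of the Leydig list was 2.42 to 3.49 in XX and 77.2 to 82.2 in XY, and that of the pregranulosa list 89.4 to 90.8 and 12.8 to 13.7. Foxl2, the defining pregranulosa factor, and Pecam1 of endothelium were below background on all 8 arrays. The summed germ cell level was 124 to 136 in XX and 177 to 209 in XY, or 121 to 132 and 122 to 134 without Dppa3, and its members went both ways, with 3 of 7 higher in XY (Pou5f1, Dppa3 and Dnd1) and 1 in XX (Sycp3). The part of cell composition in the differences between the inputs was not tested.

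**Figure D3:**
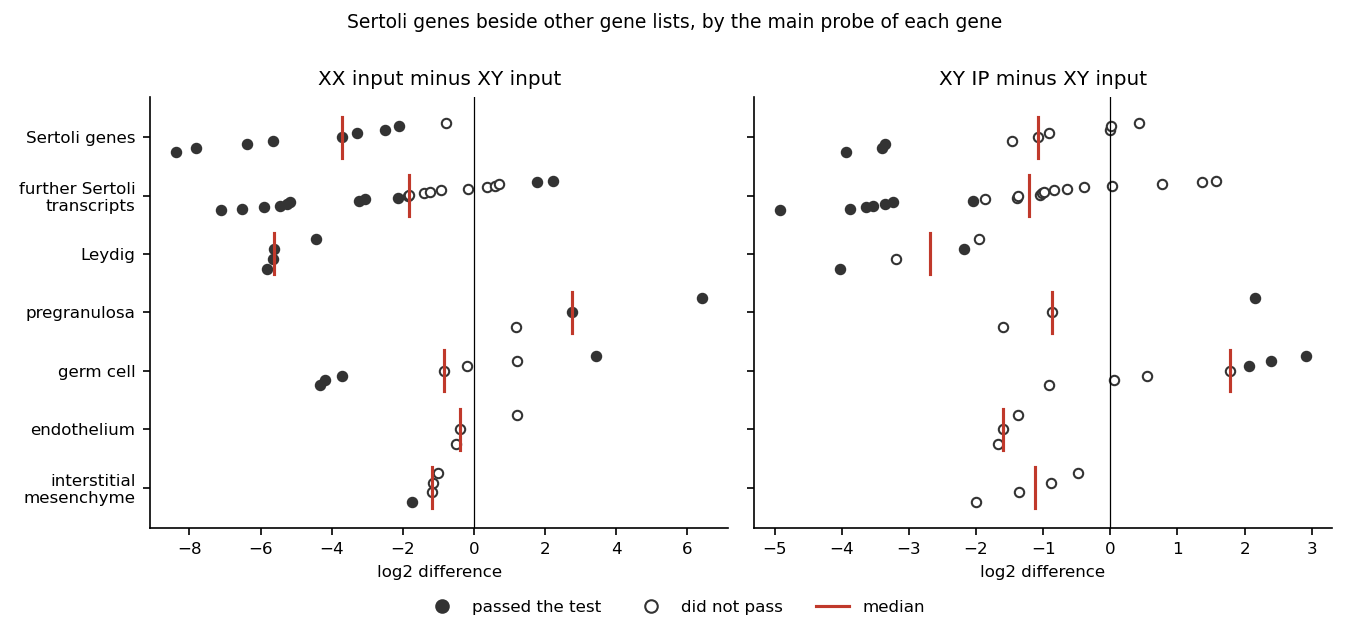
Log2 differences of the tested genes by main probe in 7 lists (y axis), for XX input minus XY input (left) and XY IP minus XY input (right). Each point is 1 gene, filled where it passed the test, and the red line is the median of the list, both as fitted, with background readings included. The Sertoli genes lie at -0.78 or lower on the left, and on the right from -3.94 to 0.43.

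The patterns closest to those of Sox9 and Amh were looked up among 11694 genes, as the smallest root mean square difference of the 8 array values after each probe's own mean was taken off. Next to Sox9 stood Efna5 (0.19), Ctrc (0.20) and Igsf21 (0.28), and next to Amh stood Oas1d (0.40), Nodal (0.43) and Hspa1b (0.44). For Amh, the pattern to be matched held background readings on 6 of the 8 arrays. This likeness is a description of 8 arrays.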

How the data were processed

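RNA of E14.5 gonads was measured on 8 1-colour Agilent whole mouse genome arrays, in 4 groups of 2 taken from the labels. The deposited scanner files hold a processed signal intensity per spot, which Agilent Feature Extraction (9.5 in the submitters' processing notes) had background-subtracted, with mean and median background intensity and flags, and none of it normalized between arrays. The deposited table holds log2 values that the authors made by setting values under 1 to 1 and scaling to the 75th percentile. Its constant is unknown (column medians 1.62 to 4.05), and it correlated at 0.999956 or more with the values below, so it served as an alternative.

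From the scanner intensity, signals under 1 were set to 1, outlier spots left out, spots of a probe averaged, and log2 values taken relative to the 75th percentile of non-control probes. No probe was saturated. Of 41174 probes, 73 had no usable spot on some array. Probes were named through accession (23374), symbol (6733) or older symbol (2919), and 8148 were not named. Positions are those in the files (mm8); no annotation of that build was used, so no exon or untranslated region is stated. Promoter sequences are from RefSeq (GRCm38.p6).

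All 8 arrays were fitted in limma 3.58.1 (R 4.3.3) with 1 mean per group and empirical Bayes moderation (residual df 4, prior df 7.83), two-sided, with Benjamini-Hochberg adjustment over 18263 probes. The procedure was checked on simulated data. IP contrasts needed an adjusted p under 0.05 and 4-fold, the study's fold limit with an adjusted p, and the other contrasts the adjusted p. Where every array of 1 group was at background, a change between the inputs or a depletion that passed is given as at least the bright mean over, per array, the higher of the lowest detected signal and the probe's own. Such bounds hold on the main scale only. The members and lists were chosen with earlier results of these data known. The text names every probe of the 10 genes, Dazl and Ddx4, and of each list the genes that passed with the largest differences between the inputs (up to 6) and defining genes. A few list genes were named after their values were seen (Clu, Krt18, Cst12, Wt1, Nr5a1 and those given for the IPs). 1 gene of the list of early gonad factors is not reported here, and no counts are given for that list. The number of arrays limits the precision. Alternatives covered the probe filter, scaling, background correction, the authors' table, a replicate block and leaving out each array.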

Additional observations from a re-analysis of the deposited data

Results flagged for a closer look

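The IP minus input value differed between XX and XY gonads for 5 probes by the test of the difference itself (limma, adjusted p under 0.05). The log2 value of XX minus XY was 5.19 for Dhh, 4.23 for Tesc, 3.79 for Amh, 3.74 for Ptgds and 3.59 for Sox8. On the XX IPs these 5 probes read between -1.87 and -0.01, and none was well above background on either array, so these values do not measure a difference in the pull-down. Each group had 2 arrays, too few for a search for outlying samples.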

How the results depend on the processing

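Between the inputs, the main probes stayed on their side of the threshold in 152 recomputations and lost the call in 10 (of Sox9, Sox8 and Inhbb), and no direction turned. With normexp on mean and background signals, 5 of 10 probes passed there in place of 9, against 1.06% of all probes higher in the XY input. In the XY IP, Ptgds, Dhh and Tesc were depleted under every setting run. The count of depleted probes was 7 scaled to the 50th percentile (45.9% of all probes). With normexp it was 5 (4.4%), also with outlying backgrounds replaced (10.6%), by the addition of Cst9 and Inhbb. With no filter on dim probes, 3 of 16 were enriched in the XY IP, against 54.4% of all probes. In the XX IP, the count of enriched probes was 8 of 16 with no filter (56.8% of all probes) and 1 with a common floor after scaling (11.1%). It was 0 scaled to the 50th percentile (1.03%), with quantile normalization (8.1%) and with either normexp (0.378%). The count of depleted probes was 5 scaled to the 50th percentile (47.3% of all probes) and 1 with quantile normalization (18.0%). For the difference between the sexes, higher in XX, the count was 1 of 16 with no filter (0.109% of all probes) and 0 scaled to the 50th percentile (0.0986%). It was 2 with quantile normalization (2.69%), 0 with normexp (0.0%) and 4 with normexp after outlying backgrounds were replaced (0.799%). With quantile normalization 1 probe was higher in XY (2.32%). The cause of these moves was not tested, other than that scaling to the 50th percentile lowers every IP difference, with a median over all probes of -1.92 in XX and -1.90 in XY. Quantile normalization moved these medians to -0.74 and -0.73. Over all probes, calls in the XY IP (1863 enriched, 1401 depleted) became 219 and 8379 at the 50th percentile. No Sertoli probe was above background on all 8 arrays, so that filter gave no value.

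Leaving out 1 array at a time, with the lone array of its group assumed to vary like the other groups, the count higher in XX for the difference between the sexes ran from 3 to 5. Some signs turned, those of differences that were not called. With normexp the XX IP difference was 0.27 for Sox9, 0.40 for Cst9 and 0.49 for Ptgds, and the XY difference of Sox8 was 0.23, or 0.50 with outlying backgrounds replaced. The XY IP difference of Sox9 was -1.85 scaled to the 50th percentile, -0.32 scaled to probes above background on all arrays, -0.55 with normexp and -0.89 with outlying backgrounds replaced, and its difference between the sexes was 0.82 and 1.16 under the last 2. Scaled to the 50th percentile and with quantile normalization, the XX differences were -0.21 and -0.83 for Dhh, -1.33 and -1.06 for Fgf9, and -1.14 and -1.07 for Tesc, and the XY differences of Fgf9 were -1.43 and -0.40. Its difference between the sexes was -0.66 with quantile normalization. Without 1 array, Sox9 ran from -0.52 to 0.06 in XX, -0.15 to 0.17 in XY and -0.53 to 0.05 for the difference between the sexes, Sox8 in XY from -0.43 to 0.41, Fgf9 for the difference between the sexes from -0.12 to 0.61, Cst9 in XX from -0.55 to 0.26 and Ptgds in XX from -0.53 to 0.13.

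No source says what the array number ties together. The deviations of same-numbered arrays from their group means correlated at 0.07 for XX input and IP, 0.09 for XY input and IP, and 0.28 for the inputs. With the replicate number as a block, 9 probes were higher in the XY input, 3 were depleted in the XY IP, 2 were enriched in the XX IP and 5 passed for the difference between the sexes, the same counts as without it. Signal over background limits the IPs: the number of probes above background there was less than that on any input.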

Other observations

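For 4 members, probes of the same gene did not agree on whether it was detected. Sox9, Sox8, Fgf9 and Inhbb each had 1 probe that did not pass the filter on dim probes beside at least 1 that did. In the XY inputs, the Sox9 probe A_51_P451606 was above background on neither array and A_52_P214630 on both, and the Inhbb probe A_52_P152847 was above it on 1 array and A_51_P325904 on both. Which of the probes measures the gene better was not tested.

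The Gata4 probe A_51_P492355 read 1.24 on XY IP 1 and -0.49 on XY IP 2, against -3.37 and -3.40 in the XY inputs, and was not well above background on any of them. The XY IPs also differed from each other for Dhh (0.33 and 1.97), Tesc (-0.03 and 1.48) and Inhbb (2.15 and 3.12). The second array of the XY IP had the higher value of each and more probes above background, 9486 against 6083.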
